A study of Rattus norvegicus with 24 samples.

Results

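The blood cells of arthritic rats were compared with those of healthy rats before any therapy was given. The arrays were taken by sample title. They were 2 arrays of animals with collagen-induced arthritis (CIA, labelled RA) and 2 arrays of healthy animals (NOCIA, labelled NORA), which make 4 of the 24 arrays of the series. All of the animals were female Wistar rats, and their age is not given in the sources used here. The RNA came from peripheral blood mononuclear cells (PBMC) purified on a Ficoll gradient, and the arrays of a group are told apart by a replicate number. CIA animals had been immunised with bovine type II collagen in Freund's adjuvant and NOCIA animals were untreated, so that immunisation and arthritis cannot be told apart. Neither group had yet received needle stimulation, methotrexate or placebo. Animals were killed once blood had been drawn. The sources do not say whether blood was pooled or whether each array had its own blood sample, so p-values concern arrays. The spread behind them was estimated within the 12 groups of all 24 arrays, not from these 4 arrays alone.

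MicroRNAs (miRNAs) are short RNAs that guide Argonaute proteins to messenger RNAs and lower their output. Bases near the 5′ end, called the seed, pair with the target, so miRNAs with one seed form a family that can act on overlapping targets. In mononuclear blood cells miR-150, miR-181 and miR-342 are known for lymphocytes, miR-223 and miR-142 for myeloid cells and leukocytes at large, and miR-146 and miR-21 for the inflammatory response.

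Of the 210 miRNAs tested, 145 were matched by name to a mature sequence of RefSeq (build GRCr8). They carry 104 different seeds, and 20 seeds are shared by 2 or more of them. The sequences below belong to the miRNAs on which the comparison turned, with the seed (bases 2 to 8) in capitals. The first set was detected in NOCIA alone or in CIA alone.
miR-122: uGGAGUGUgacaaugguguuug
miR-3584-5p: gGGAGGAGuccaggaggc
miR-3593-3p: cUUCAACCuuaagggggccuca
miR-290: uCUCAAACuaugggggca
miR-21*: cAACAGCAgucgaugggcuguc
miR-1249: aCGCCCUUcccccccuucuuca
miR-193: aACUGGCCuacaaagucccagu
The second set shows 3 families in which one seed is shared, miR-29, miR-181 and the family of miR-32, and the 2 arms of the miR-125a hairpin.
miR-29a: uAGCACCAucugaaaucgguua
miR-29b: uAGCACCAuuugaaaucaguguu
miR-29c: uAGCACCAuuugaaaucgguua
miR-181a: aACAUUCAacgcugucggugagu
miR-181b: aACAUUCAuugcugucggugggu
miR-181c: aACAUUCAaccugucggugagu
miR-181d: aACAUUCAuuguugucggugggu
miR-32: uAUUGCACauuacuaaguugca
miR-25: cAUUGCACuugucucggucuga
miR-92a: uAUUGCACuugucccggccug
miR-363: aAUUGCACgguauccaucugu
miR-125a-5p: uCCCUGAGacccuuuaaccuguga
miR-125a-3p: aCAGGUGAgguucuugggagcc

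All 4 arrays lay on 1 slide. They detected 148 and 145 miRNAs in NOCIA (replicates 1 and 2) and 157 and 170 in CIA, and the summed intensity of detected miRNAs was 137544 and 138064 in NOCIA and 167322 and 163860 in CIA. Both measures were higher on both CIA arrays. Intensities were therefore scaled to a common 75th percentile, with factors of 1.39 and 1.42 in NOCIA and 1.37 and 1.2 in CIA, and are given below as log2 of the scaled intensity. All 9 leukocyte markers that were looked for were detected on all 4 arrays. Markers of muscle (4 of 4 undetected) and of neurons (3 of 4) or epithelium (5 of 6) were mostly not, whereas miR-128, listed for neurons, was detected on all 4. The erythroid miRNAs miR-451, miR-144 and miR-144* were detected on all 4 arrays as well. In such bulk samples fewer cells of a type and less RNA per cell cannot be told apart.

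The profiles of the 2 groups were close to each other, and the largest differences in scaled intensity were mostly those of dim miRNAs detected in 1 group. For miRNAs detected on both arrays of 1 group only, the ratio of mean spot intensities ran from 1.06 (miR-194) to 13.8 (miR-122). CIA arrays did not detect miR-122 and miR-3584-5p, which both NOCIA arrays detected, and detected 10 miRNAs, among them miR-290, miR-3593-3p, miR-21* and miR-193, that neither NOCIA array detected. Among the 135 miRNAs detected on all 4 arrays none was called, and the largest differences with both CIA arrays on one side of both NOCIA arrays were a higher miR-125a-3p (1.21, SE 0.46) and a lower miR-32 (-1.04, SE 0.60). The miR-29 family and the cluster of miR-188, miR-532, miR-500 and miR-362 lay higher in CIA in every member detected on all 4 arrays, where 73 of all 135 lay above 0. Other small families also lay on one side in every such member, some of them lower. Tested with limma and Benjamini-Hochberg adjustment over the 210 miRNAs, 2 passed an adjusted p of 0.05 (0.952%), miR-122 and miR-3593-3p. With the mean processed intensity of the spots in place of the total, 0 passed. With 2 arrays a group, an exact test of 1 miRNA cannot go below a two-sided p of 0.333.

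miR-122 is the most abundant miRNA of hepatocytes. Its scaled intensity was 7.76 and 7.73 in NOCIA, and it was undetected on both CIA arrays. The 20 spots of its 2 probes had a mean processed intensity of 110 and 105 on the NOCIA arrays and of 8.87 and 6.66 on the CIA arrays, while negative control spots had means of 8.12, 8.08, 8.38 and 8.71 on these 4 arrays in the same order. The CIA spots were thus at the level of the negative controls, and all 20 NOCIA spots on each array were well above background. The mean over both NOCIA arrays was 32.4-fold above the detection limit of the CIA arrays on the total signal (adjusted p 0.00208 in limma) and 13.8-fold above the CIA mean on the spots. Folds over the detection limit hold for the total signal alone and are no minimum for the spots, whose ratio was smaller for 9 of the 11 miRNAs with such a fold, miR-21* and miR-378* being the exceptions. It lies at chr18:61028831-61028852 (+ strand, GRCr8), outside of any annotated host gene in the RefSeq gene table. Of the other liver miRNAs, miR-192 measured 4.47 and 4.65 in NOCIA and 4.78 and 5.26 in CIA (0.46, SE 0.30, adjusted p 0.938). miR-194 was undetected in NOCIA and measured 3.94 and 3.80 in CIA, but its spots overlapped between the groups and its difference was -0.07 with the mean processed signal. Neither passed the test.

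The signal of miR-122 was not a stable feature of healthy animals. In NOCIA it was detected on 2 of 2 arrays before therapy, 1 of 2 at 1 hour (3.85) and 0 of 2 at 34 days. For the NOCIA samples at 34 days 1 label line reads as 1 hour, while the title and the other line read 34 days. The title was used here and in every comparison with 34 days. Among the arthritic arms at 1 hour and 34 days it was highest under ANE at 1 hour, with 8.96 and 5.43. ANE animals were bled under isoflurane, where the other arthritic arms had ether, and received no other therapy. Of the 20 other arrays, 7 detected miR-122. The arthritic minus healthy difference before therapy differed from that at 34 days, taken there between ANE and NOCIA on the same slide, by -5.83 (SE 1.14, adjusted p 0.0182 in limma), and 2 of 210 miRNAs passed this test (0.952%), with 7 at a p under 0.05 before adjustment (3.33%). Without 1 of the arrays compared the adjusted p of this difference ran from 0.061 to 0.091, so the call needed each of the 4.

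**Figure D1:**
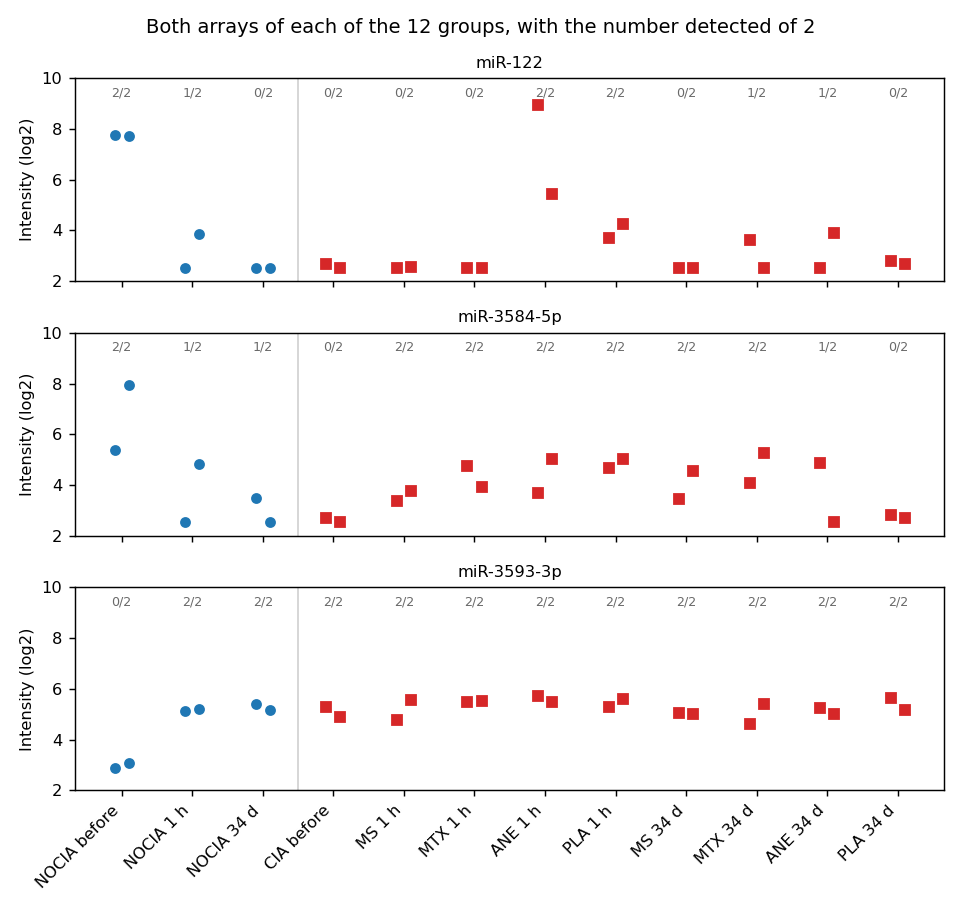
Scaled total intensity (log2, y axis) of miR-122, miR-3584-5p and miR-3593-3p on both arrays of each of the 12 groups (x axis), with healthy animals as circles and arthritic animals as squares; the numbers at the top count arrays that detected the miRNA. The 2 NOCIA arrays before therapy hold 7.76 and 7.73 for miR-122 while NOCIA at 34 days is undetected, and miR-3593-3p was undetected only on the NOCIA arrays before therapy.

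miR-3584-5p was the other miRNA seen in NOCIA alone. It measured 5.37 and 7.96 there, with replicates far apart, and was undetected on both CIA arrays. Its mean spot intensity was 20.9 and 123 in NOCIA and 11.6 and 9.46 in CIA. The NOCIA mean was 15.3-fold above the CIA detection limit on the total signal (adjusted p 0.0513 in limma) and 6.83-fold above the CIA mean on the spots. The size rested on NOCIA replicate 2: the fitted difference was -5.34 without NOCIA replicate 1 (adjusted p 0.019) and -2.75 without NOCIA replicate 2 (adjusted p 0.49). Of the other arrays 15 of 20 detected it, at 3.38 to 5.25. It maps to chr1:256727582-256727599 (- strand) inside Itprip. miR-466b-2*, seen on NOCIA replicate 2 only, had a spot mean of 20.2 there and 8.05 on replicate 1.

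The 10 miRNAs detected in CIA alone were all faint, and 9 of them lay above 3.22, the highest detection limit of the 4 arrays, on both CIA arrays. miR-3593-3p was the one that was called. It measured 5.28 and 4.87 in CIA, 3.83-fold above the NOCIA detection limit on the total signal (adjusted p 0.000873 in limma). Its mean spot intensity was 20.2 and 17.5 in CIA against 9.92 and 12.3 in NOCIA, a ratio of 1.7, so that the NOCIA spots stood only slightly above the negative controls. It was detected on all 20 other arrays, at 4.62 to 5.73, which makes the 2 NOCIA arrays before therapy the exceptions in the series. The difference before therapy differed from that at 34 days by 2.25 (SE 0.40, adjusted p 0.0153 in limma), and leaving out 1 of the arrays compared gave 0.0255 to 0.0728. Its locus is chr6:78987770-78987791 (- strand).

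Both calls rested on the total signal that the scanner software sums per miRNA, which replaces an undetected value by its error. With the plain mean of the processed spots, miR-122 stood at -3.97 (adjusted p 0.0756) and miR-3593-3p at 0.61 (adjusted p 0.731). With the authors' log2 table they stood at -3.77 (adjusted p 0.0524) and 0.63 (adjusted p 0.302), and with normexp on the median spot signal at -1.27 and 0.02 (adjusted p 0.999 for both). The direction of either miRNA held in each of these.

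The other miRNAs detected on both CIA arrays alone included miR-290, of a cluster known from embryonic stem cells, with 5.73 and 5.05 (4.77-fold above the NOCIA detection limit on the total signal, 2.18-fold on the spots, adjusted p 0.353). For the next miRNAs the fold over that limit and then the ratio of spot means are given. miR-21*, the passenger strand of miR-21, measured 5.24 and 4.76 (3.64 and 5.31, adjusted p 0.353). miR-1249 measured 4.95 and 4.75 (3.28 and 1.23, adjusted p 0.353). Of the 20 other arrays, 14, 17 and 12 detected these miRNAs in that order. miR-193 measured 4.66 and 4.65 (2.86 and 1.67, adjusted p 0.353) and miR-362, whose star strand lies in an X-linked cluster within Clcn5, 4.44 and 4.11 (2.2 and 1.92, adjusted p 0.0572), and both were detected on all 20. miR-378*, which lies in the metabolic coactivator gene Ppargc1b, miR-34c of the p53-induced miR-34 family and miR-194 lay 1.82-, 1.74- and 1.66-fold above the limit, with spot ratios of 2.21, 1.4 and 1.06. miR-7b, at 3.25 and 2.82, was too close to the detection limit for a fold.

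The spots told these apart by strength. The mean spot intensity of miR-21* was 22.9 and 17.4 in CIA against 5.66 and 1.93 in NOCIA. That of miR-290 was 27.5 and 19.8 against 12.7 and 8.98. For both, the 2 groups did not overlap. For miR-194 the CIA spots had means of 8.88 and 11 and the NOCIA spots of 7.90 and 10.9, and for miR-7b 10.1 and 9.97 against 8.60 and 9.68, values that lay about as far apart within a group as between groups. For miR-1249 the means were 16.2 and 16.1 in CIA and 14.0 and 12.3 in NOCIA, a far smaller contrast than the detection calls give. A further 15 miRNAs were detected on 1 CIA array and no NOCIA array, and 1 on 1 NOCIA array and no CIA array. CIA replicate 2, with 170 detected miRNAs, had the lowest detection limit (2.57), and the part of the limit in these counts was not tested.

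**Figure D2:**
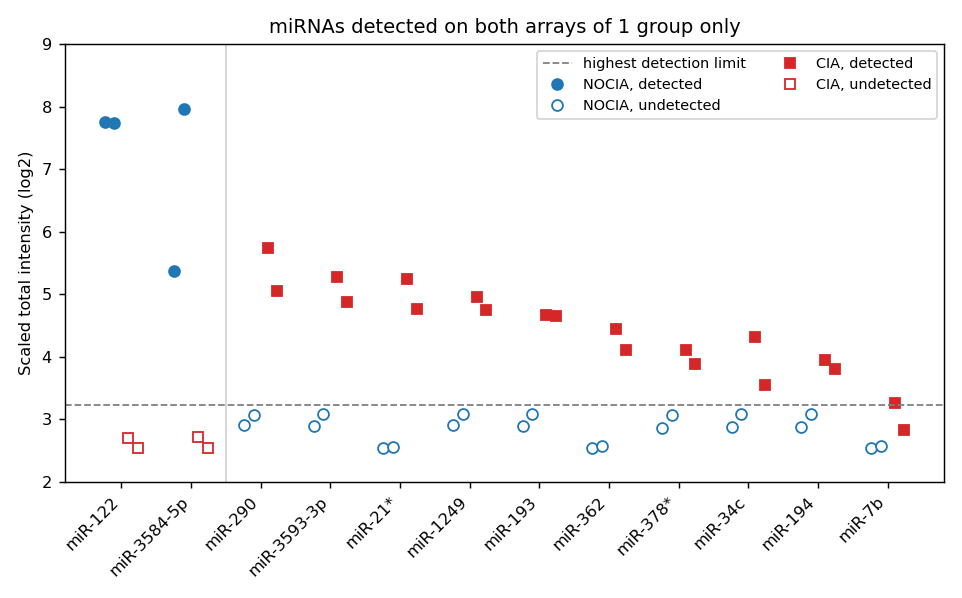
Scaled total intensity (log2, y axis) of the 12 miRNAs detected on both arrays of 1 group and on neither array of the other (x axis), with 1 point per array; open symbols are undetected arrays, whose values are listed errors and not levels, and the dashed line is the highest detection limit, 3.22. The 2 miRNAs on the left were detected in NOCIA alone and the 10 on the right in CIA alone, of which 9 lie above the line on both CIA arrays.

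Before adjustment 16 of the 210 miRNAs had a p under 0.05 in limma (7.62%), 13 higher in CIA (6.19%) and 3 lower (1.43%). If no miRNA differed, 10.5 of the 210 would be expected to have such a p. Of the 16, 10 belong to the miRNAs detected in 1 group alone, and 1, miR-181c*, was detected on none of the 4 arrays, so that its difference of -0.36 is one between listed errors. The same holds for the 32 tested miRNAs that no array of the 4 detected, all of which had a fitted difference below 0, from -0.45 to -0.01. The other 5 were among the 135 miRNAs detected on all 4 arrays and were higher in CIA, and none passed after adjustment. miR-3559-5p measured 4.87 and 5.61 in NOCIA and 5.97 and 5.85 in CIA (0.67, SE 0.23, adjusted p 0.353). miR-34a, a p53 target, measured 7.67 and 7.73 against 8.20 and 8.12 (0.46, SE 0.17, adjusted p 0.353), and miR-140, known for its role in cartilage, 9.01 and 8.98 against 9.43 and 9.25 (0.35, SE 0.14, adjusted p 0.385). let-7b measured 11.16 and 11.11 against 11.39 and 11.53 (0.33, SE 0.15, adjusted p 0.578). The last was miR-125a-3p, described below, which was the only miRNA past the threshold of the study's methods, which asks for more than a 2-fold change and p under 0.05 before adjustment (1 of 135, 0.741%). Without NOCIA replicate 1 it stood at 0.63 and 0 miRNAs passed, and without CIA replicate 1 it stood at 0.67, under that fold.

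Among the 135 miRNAs detected on all 4 arrays, both CIA arrays lay above both NOCIA arrays in 47 (34.8%) and below them in 38 (28.1%), 85 in all (63%). This split depended on the scaling. Without scaling it was 66 above and 10 below, with the 75th percentile over all miRNAs 79 and 10, with quantile normalisation 33 and 37, with normexp 35 and 40, and with the summed intensity apart from miR-451 and miR-144 35 and 62. The median difference over these miRNAs was 0.02, and it moved to 0.15 without scaling, 0.23 with the percentile over all miRNAs and -0.10 with the summed intensity. A small difference is therefore read below relative to the other miRNAs, and families are named as higher or lower only with the range of their median over the 4 other scalings (none, the percentile over all miRNAs, quantile and summed intensity). Family medians were not computed with normexp, the mean processed signal or the authors' table, so their direction there was not tested.

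The whole profile differed little. Taken across the 135 miRNAs, not across replicates, Pearson's r was 0.992 between the NOCIA arrays, 0.982 between the CIA arrays and 0.983 to 0.989 between arrays of different groups. Spearman's rho was 0.991, 0.980 and 0.981 to 0.989 for the same pairs. The median absolute log2 difference was 0.0783 between the NOCIA arrays and 0.133 between the CIA arrays, and 0.201 to 0.277 between arrays of different groups. On these 4 arrays, with 1 pair in each group, the typical miRNA differed by more between the groups than within them. The median absolute difference of the group means was 0.219, and it was smaller with normexp. The median SE of the fitted difference, from the spread within all 12 groups, was 0.279 and so larger than that difference. The rank order was shared about as well between the groups as between the CIA arrays. Of the 135, 116 had group means less than 0.5 apart and 3 more than 1 apart, miR-125a-3p, miR-32 and miR-144. The 95% interval of the fitted difference lay within 1 log2 of 0 for 77 of the 135 and within 2 for 122, so for the rest a change of 2-fold was within the interval.

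The largest difference upward with separated groups, that of miR-125a-3p, comes from the 3′ arm of a hairpin within Spaca6 (chr1:67350727-67350748, + strand). It measured 3.26 and 4.42 in NOCIA and 5.60 and 4.51 in CIA, with CIA replicate 2 just above NOCIA replicate 2. The 5′ arm of the same hairpin, miR-125a-5p, lay lower in CIA, with 4.94 and 5.15 in NOCIA and 4.36 and 4.78 in CIA (-0.48, SE 0.43, adjusted p 0.938), as did let-7e of the same cluster. With normexp the 3′ arm stood at -0.04, while it was above 0 under each other setting. miR-125b-5p, which shares the seed of miR-125a-5p and is known in haematopoietic cells, measured 6.70 and 6.76 against 6.50 and 6.50 (-0.24, SE 0.48, adjusted p 0.98).

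The next of these was miR-150*, 5.74 and 5.75 in NOCIA and 6.58 and 6.67 in CIA (0.88, SE 0.82, adjusted p 0.938). Its guide strand miR-150, a miRNA of mature lymphocytes, measured 12.87 and 12.83 against 13.38 and 13.47 (0.57, SE 0.89, adjusted p 0.961). The replicates of either strand were close here, but the spread that all 12 groups share in the fit was far larger. In a fit of the 4 arrays alone miR-150* was called (SE 0.07, adjusted p 0.0379 in limma). miR-361 measured 7.95 and 7.93 against 8.52 and 8.62 (0.63, SE 0.30, adjusted p 0.66). miR-188, miR-181a-1* and miR-211* differed by 0.85, 0.73 and 0.69, each with NOCIA replicates about as far apart as the groups, and adjusted p ran from 0.938 to 0.964.

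**Figure D3:**
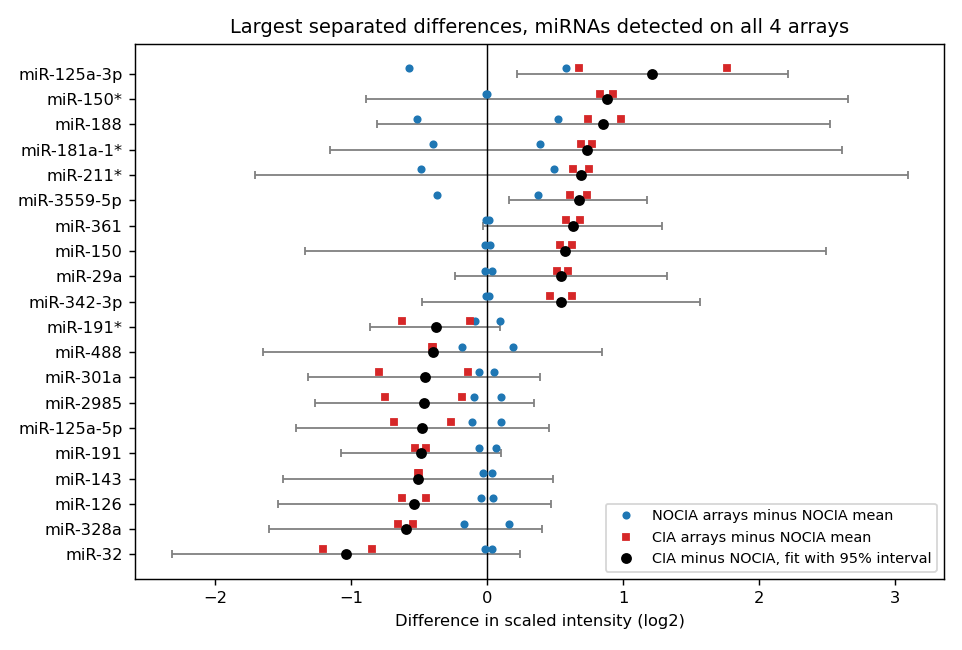
Fitted difference between CIA and NOCIA (log2, x axis) with its 95% interval for the 10 largest differences each way among miRNAs detected on all 4 arrays whose groups did not overlap (y axis); small points are the arrays minus the NOCIA mean. Only the intervals of miR-125a-3p (0.22 to 2.21) and miR-3559-5p (0.16 to 1.17) lie apart from 0.

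Downward, miR-32, encoded within Tmem245 (chr5:76391328-76391349, - strand), led. It measured 5.16 and 5.21 in NOCIA and 4.33 and 3.97 in CIA (-1.04, SE 0.60, adjusted p 0.836). The NOCIA replicates were close and both CIA arrays were well below them. miR-126, an endothelial and platelet miRNA, measured 6.47 and 6.56 against 6.07 and 5.89 (-0.54, SE 0.47, adjusted p 0.938), and miR-143, known for smooth muscle, 8.02 and 8.08 against 7.54 and 7.55 (-0.51, SE 0.46, adjusted p 0.938). miR-191 measured 5.59 and 5.71 against 5.12 and 5.2 (-0.49, SE 0.27, adjusted p 0.836). These miRNAs were taken from those whose groups did not overlap, which 38 of the 135 did in this direction (28.1%), and none passed the test.

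Ranked by intensity within each array, the 135 miRNAs kept nearly the same order, with a median move of the mean rank of 3 places between the groups, 1 place between the NOCIA arrays and 3 between the CIA arrays. Of the 10 brightest miRNAs 8 were shared by all 4 arrays, and of the 20 brightest 18 were. The 8 were miR-150, miR-15b, miR-16, let-7f, miR-21, let-7a, miR-26a and miR-142-3p. Ranks compare the brightness of different probes and not amounts of RNA. The lymphocyte miRNA miR-150 ranked 9 on both NOCIA arrays and 6 and 2 on the CIA arrays. miR-361 moved from 65 and 66 to 57 and 54, and miR-150* from 101 and 100 to 92 and 86. These 3 ranked higher on both CIA arrays. Among miRNAs whose ranks did not overlap, the largest upward move was that of miR-652*, from 97 and 102 to 79 and 94. miR-32 moved from 113 and 113 to 125 and 130, miR-191 from 103 and 101 to 114 and 117, and miR-425, which shares the Dalrd3 locus with miR-191, from 39 and 37 to 52 and 45. Moves of the mean rank of over 10 places were seen for 9 miRNAs. Ranks did not overlap for 33 of the 135 miRNAs ranked higher in CIA and for 37 of the 135 ranked lower. The miRNAs named here for their moves were picked from these.

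**Figure D4:**
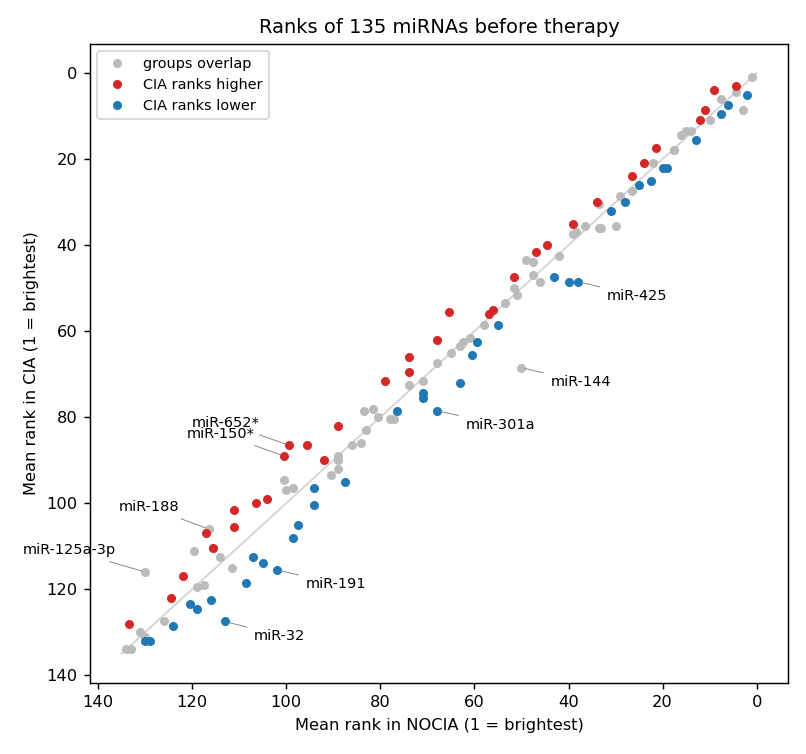
Mean rank in CIA against mean rank in NOCIA of the 135 miRNAs detected on all 4 arrays (1 is the brightest), 1 point per miRNA, with the 9 that moved by over 10 places named. Most points lie by the diagonal, and the median move is 3 places.

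The erythroid miRNAs, which sit together on chromosome 10 and mark red cell precursors and red cells, split the CIA replicates. miR-451 measured 13.39 and 13.51 in NOCIA and 14.68 and 12.05 in CIA. miR-144 measured 9.11 and 9 against 9.50 and 6.24, and miR-144* 7.33 and 7.27 against 8.44 and 5.78. All 3 were above NOCIA on CIA replicate 1 and below it on CIA replicate 2, so no group difference can be read, and their part in the other differences was not tested. The rank of miR-451 was 3 on both NOCIA arrays and 2 and 15 on the CIA arrays.

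Families were described over the members detected on all 4 arrays, whose median difference over all 135 was 0.02. The miR-29 family, known to target collagens, lay higher in CIA in 3 of 3 members, with a median of 0.40 and a range of 0.29 to 0.61 over the scalings. miR-29a measured 12.47 and 12.52 in NOCIA and 13.08 and 13.00 in CIA (0.54, SE 0.36, adjusted p 0.938). miR-29b measured 11.29 and 11.35 against 11.91 and 11.53 (0.40, SE 0.20, adjusted p 0.66). miR-29c measured 9.13 and 9.23 against 9.62 and 9.33 (0.30, SE 0.33, adjusted p 0.944). In all 3 both CIA arrays lay above both NOCIA arrays, as they did in 47 of the 135 (34.8%), and 0 of 3 passed the test. The 3 sequences above differ in few bases outside the seed, and miR-29b and miR-29c come from one locus on chromosome 13, so that members are not independent.

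The X-linked cluster of miR-188, miR-532, miR-500 and miR-362 showed 5 of 5 members higher in CIA, with a median of 0.41 (0.30 to 0.62 over the scalings), where 73 of all 135 lay above 0. Members of one cluster are not independent, and 0 of 5 passed the test. miR-532-5p measured 6.30 and 6.30 in NOCIA and 6.68 and 6.74 in CIA (0.41, SE 0.31, adjusted p 0.938), and miR-532-3p 5.10 and 5.15 against 5.40 and 5.39 (0.27, SE 0.24, adjusted p 0.938). Their replicates were nearly equal, whereas those of miR-188 (5.37 and 4.33 in NOCIA) and miR-500 (9.35 and 8.80) were not. Those matched to RefSeq lie at chrX:17919195-17926547 within Clcn5. The strands of miR-342, within Evl, had a median of 0.53 (0.41 to 0.74 over the scalings), miR-342-3p with 10.60 and 10.58 against 11.05 and 11.21 (0.54, SE 0.48) and miR-342-5p with 5.55 and 5.58 against 6.08 and 6.10 (0.52, SE 0.65), at adjusted p of 0.938 and 0.944.

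Members of one seed did not always share a direction. Of the miR-181 family, which tunes T-cell receptor signalling, the pair of chromosome 13 lay slightly higher in CIA and the pair of chromosome 19 slightly lower. miR-181a measured 10 and 9.98 in NOCIA and 10.02 and 10.33 in CIA (0.19, SE 0.38, adjusted p 0.98), and miR-181b 7.09 and 7.11 against 7.07 and 7.49 (0.18, SE 0.26, adjusted p 0.944). miR-181c measured 7.33 and 7.38 against 7.10 and 7.17 (-0.22, SE 0.30, adjusted p 0.944), and miR-181d 7.62 and 7.63 against 7.26 and 7.43 (-0.28, SE 0.32, adjusted p 0.944). Each of these 4 kept its direction under the scalings, yet every difference was below its SE. miR-181a has a second locus on chromosome 3. In the family of miR-32, miR-25 measured 9.99 and 10.05 against 10.36 and 10.10 (0.21), miR-363 7.56 and 7.43 against 7.85 and 7.93 (0.40) and miR-92a 12.08 and 12.15 against 12 and 12.25 (0.01). miR-32 alone of the 4 was lower on both CIA arrays, and the difference between members was not tested.

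**Figure D5:**
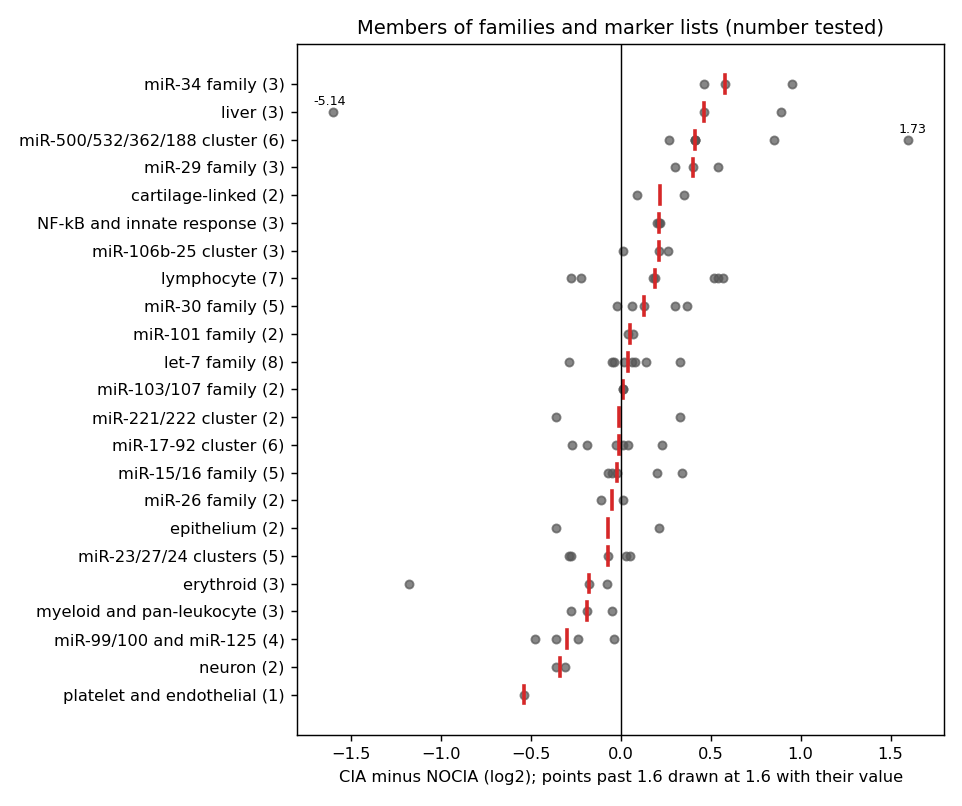
Difference between CIA and NOCIA (log2, x axis) of the tested members of each family, cluster or list (y axis), 1 point per miRNA with the median as a bar; tested members include some not detected on all 4 arrays, and points past the axis are drawn at its edge with their value. The miR-29 family (0.30 to 0.54) lies above 0 throughout, as does the cluster of miR-188, miR-532, miR-500 and miR-362, while the lymphocyte list, which holds miR-181, has members on both sides.

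Of the lists named for immune function, none held a called member, against 0.952% over the 210 miRNAs. The lymphocyte list had 5 of 7 members higher and 2 lower in CIA, with a median of 0.19 (0.07 to 0.40 over the scalings). The list of the innate and NF-kB response had 3 of 3 higher, miR-146a with 9.19 and 9.15 in NOCIA and 9.37 and 9.41 in CIA (0.22, SE 0.53), miR-146b with 7.49 and 7.49 against 7.72 and 7.68 (0.21, SE 0.19) and miR-21 with 14.55 and 14.54 against 14.82 and 14.67 (0.20, SE 0.28), at adjusted p of 0.98, 0.938 and 0.944. Its median fell to 0.00 under quantile normalisation. The 3 myeloid and leukocyte miRNAs lay below 0, among them miR-223 with 12.59 and 12.83 against 12.26 and 12.60 (-0.28, SE 0.25, adjusted p 0.938), and their median ran from -0.41 to 0.02 over the scalings. The let-7 family, with 8 members, had a median of 0.04 that ran from -0.08 to 0.25, so no direction can be given. Apart from these lists, miR-23a, miR-24 and miR-27a of 1 cluster were lower in 3 of 3 members (median -0.28, -0.40 to -0.07 over the scalings). By contrast, miR-23b and miR-27b lay near 0. The miR-99/100 and miR-125 list was lower in 3 of 3 (-0.24, -0.35 to -0.03), and the miR-106b-25 cluster higher in 3 of 3 (0.21, 0.09 to 0.42). No member of these was called. The lists were small, and differences of this size were within the median half-width of the 95% interval, 0.60.

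The arthritic minus healthy differences before therapy were set beside those at later times, in which no array is shared. At 34 days, taken as ANE minus NOCIA on the same slide, miR-32 stood at -0.82 (adjusted p 1) after -1.04 before therapy, and miR-150* at 0.55 (adjusted p 1) after 0.88. At 1 hour, taken as PLA minus NOCIA on another slide, miR-32 stood at 0.46 and miR-150* at -0.71 (adjusted p 0.99 for both). Over the 135 miRNAs the differences before therapy correlated with those at 34 days with an r of 0.437, and 103 had the same sign, while with those at 1 hour r was -0.395 and 32 had the same sign. These values are across miRNAs, which are not independent replicates, and the arms differ in treatment as well as in time. miR-125a-3p was above 0 each time, at 1.21, 0.46 and 0.63.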

How the data were processed

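Small RNA was measured on 1-colour Agilent rat miRNA arrays. The deposited scanner files of the authors (Agilent Feature Extraction 10.7.3.1) hold for each miRNA a total intensity, on a linear scale and background-subtracted by the software, with a detection flag. All 12046 undetected values over the 24 arrays equal the listed error and carry no level. A log2 table of the authors was used as an alternative, and its normalisation is not given in the sources used here. The submitters' processing notes also name RMA.

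The total intensity was scaled to the 75th percentile over the 132 miRNAs detected on all 24 arrays, set to a floor of 5.76 and taken as log2. The 210 of 677 miRNAs detected on at least 3 arrays were fitted in limma 3.58.1 (R 4.3.3; lmFit and eBayes) with the means of 12 groups, 12 residual degrees of freedom and Benjamini-Hochberg adjustment. MiRNAs seen in 1 group only are given as a fold over the detection limit of the total signal: the mean of the brighter group against that of the dimmer one, in which each array counts with its lowest detected signal or the measured value, whichever is higher. It is no minimum for other signals, and the ratio of the spot means stands beside it. Spot means are unscaled processed signals. The threshold of the study's methods was applied to miRNAs detected on all 4 arrays. The number of arrays, 2 a group, limits the precision. The fit was tested on simulated data. Named miRNAs were drawn from the calls, those seen in 1 group alone and the 10 largest differences each way with groups apart. The largest rank moves and the fixed lists were drawn on as well. Not every member of these sets is named in the text, and others were named after their values were seen. The arrays were taken by title, and this comparison, the miRNAs and the lists were chosen with earlier results of these data known. Replicate numbers were not used to pair the arrays in the fit reported. The correlation of deviations of same-numbered arrays was 0.169, from -0.759 to 0.862 over the 66 pairs of groups. With 2 arrays a group it cannot show whether the numbers pair them. Alternatives were scaling, signal, filter, floor, samples in the fit, a replicate block and leaving out each array.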

Additional observations from a re-analysis of the deposited data

Results flagged for a closer look

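For 2 miRNAs the arthritic minus healthy difference before therapy differed from that at 34 days. This was the interaction term in the limma fit of all 24 arrays, which contrasts 8 arrays of 1 slide. For miR-122 this was -5.83 (SE 1.14, adjusted p 0.0182), and for miR-3593-3p 2.25 (SE 0.40, adjusted p 0.0153). NOCIA before therapy was the group that stood apart for both, with miR-122 detected on 2 of 2 arrays and miR-3593-3p on 0 of 2, whereas NOCIA at 34 days had 0 of 2 and 2 of 2. Over 18 settings the lowest and highest adjusted p of miR-122 in limma were 0.000777 and 0.973, under 0.05 in 9 of 18, and those of miR-3593-3p 0.000777 and 1, under 0.05 in 10 of 18. The 18 include the fit as reported and count the fit of the 8 arrays of the slide 2 times. Leaving out 1 of the 4 arrays before therapy gave 0.061 to 0.091 for miR-122 and 0.0255 to 0.0728 for miR-3593-3p, so the calls ended in each case but that of miR-3593-3p without CIA replicate 2.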

How the results depend on the processing

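Of the values for single miRNAs, 679 kept direction and side of the threshold, 30 passed it, 6 lost it and 26 reversed. Calls between CIA and NOCIA, 2 as reported, numbered 4 with the percentile over all miRNAs or with a floor lowered to 0.5 of it, 5 with quantile normalisation, 0 with normexp, with the mean processed signal, with the authors' table and with the filter of detection on all 24 arrays (which removes miR-122), 371 with no filter (351 of them detected on no array), 7 in the fit of the arrays compared and 8 in that of the slide, and 2 to 3 with 1 array left out. Unadjusted calls, 16 as reported, numbered 5 with normexp, 5 with the filter of all 24, 375 with no filter, 57 in the arrays compared, 45 in the slide and 9 to 17 with 1 array left out. The threshold of the methods gave 0 with quantile, normexp and mean processed signal, 2 with the authors' table and 0 to 2 with 1 array left out. The test against 34 days, 2 as reported, gave 0 with the percentile over all miRNAs, normexp, the mean processed signal and the authors' table. It also gave 0 with the filter of all 24 and with 2 times the floor. With no filter it gave 343, and in the 8 arrays of the slide, which are those it compares, 6. The median absolute difference was 0.119 with normexp.

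Reversed values were, with no scaling, miR-142-3p 0.08, miR-451 0.05 and miR-26a 0.02, with the percentile over all miRNAs 0.16, 0.13 and 0.10 for the same 3, with quantile let-7f 0.00 and let-7a -0.14, with the authors' table let-7f -0.07 and let-7a -0.03, and with the summed intensity let-7f -0.06 and let-7a -0.04. With normexp they were the test against 34 days of miR-3593-3p -0.03, miR-125a-3p -0.04, miR-211* 0.00, miR-1249 -0.08, miR-193 0.00, miR-362 -0.07, miR-378* -0.04, miR-34c -0.06, miR-194 -0.11 and miR-7b -0.08, and with the mean processed signal miR-194 -0.07 and miR-7b -0.02. With 1 array left out miR-142-3p ran from -0.34 to 0.23 and miR-451 from -1.40 to 1.24, above 0 for both without CIA replicate 2, and miR-142-3p was 0.01 without NOCIA replicate 2. The causes were not tested.

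The median of all tested miRNAs moved by 0.108 without scaling and 0.185 with the percentile over all. With the replicate block there were 2 calls, 17 unadjusted, 1 past the threshold of the methods and 2 in the test against 34 days. The numbers share no animal, and the block changed no call. The summed intensity and the splits by scaling were chosen after seeing the data.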
